A study of Mus musculus with 4 samples.

Results

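The clustered histone genes of the mouse were examined in AB2.2 mouse ESCs, an embryonic stem cell line, at the level of RNA. Members were all genes whose symbol begins with Hist1h, Hist2h, Hist3h or Hist4h, with 1 symbol marked as a pseudogene left out. This gave 69 genes of 55335 in the annotation. The Hist1 cluster held 56 of them, Hist2 held 10, Hist3 held 2 and Hist4 held 1. By histone type there were 6 linker H1 genes, 20 H2A genes, 18 H2B genes, 12 H3 genes and 13 H4 genes. Of these, 67 were annotated as protein coding and 2, Hist1h2aj and Hist1h2al, as pseudogenes. RNA-seq had been performed on 2 control libraries and on 2 libraries from cells given 50 mM lactate for 24 h. All 4 cultures were grown in medium with 15% FBS, LIF and the inhibitors CHIR99021 and PD0325901, on mouse embryonic fibroblast feeders, so RNA of feeder cells could be part of each library. The labels do not say whether replicates were separate cultures, so the spread between them may be technical. The question was whether lactate-supplemented ESCs carried a different level of these histone mRNAs.

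Core histones H2A, H2B, H3 and H4 form the nucleosome around which DNA is wound, and H1 binds the linker DNA between nucleosomes. The clustered genes are the replication-dependent ones: they are mostly without introns, are transcribed in S phase with the coactivator Npat, and supply histones for newly made chromatin. Their usual mRNAs end in a short stem-loop in place of a poly(A) tail. The stem-loop is bound by Slbp, and the end is cut with the U7 particle, which contains Lsm10 and Lsm11. Some of these genes also make longer, polyadenylated mRNAs that run past the stem-loop. Whether RNA had been selected by its poly(A) tail is not given in the sources used here.

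The stem-loop is the sequence that sets this family apart, so its forms are shown first. In the GENCODE M21 transcripts, the pattern GGNNNTTNNNANNNCC with all 6 stem positions paired was found on the sense strand of 46 of the 69 members. It took 8 different sequences, and in 45 members it began 21 to 58 bases after the stop codon. The 5 forms found in more than 1 gene and the single form of Hist1h3g are given 5′ to 3′ with the paired stem in capitals and the loop in lower case.
26 genes of H1, H2A, H2B and H3: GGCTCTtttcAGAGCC
7 genes, all H4: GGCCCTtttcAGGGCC
6 genes of H1, H2B and H3: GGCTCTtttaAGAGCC
2 genes, Hist1h4i and Hist2h4: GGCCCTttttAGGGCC
2 genes, Hist1h4b and Hist1h4j: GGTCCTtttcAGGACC
1 gene, Hist1h3g: GGCTCTtcttAGAGCC
The H1, H2A, H2B and H3 genes shared 1 stem and differed in the loop, and the H4 genes with a match had 2 other stems. The remaining 23 members had no match in their annotated transcripts, which in 19 of them were short and of 1 exon. Hist1h2bc, the member with the most reads, was among those without a match: its annotated transcript is spliced into 2 exons and is 1156 bases long.

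Many H2A and H2B genes lie head to head. There were 13 such pairs, with starts 175 to 305 bases apart, so that each pair shared its promoter region. The promoter below belongs to Hist1h2ac and covers the 250 bases between the starts of Hist1h2ac and Hist1h2bc. It is chr13:23683910-23684209 (minus strand, GRCm38.p6, sequence from RefSeq). Capitals mark the TATA box TATAAA, the box with the letters CCAAT, the octamer ATTTGCAT that Pou2f1 binds, and the H1 box AAACACA, on either strand. No box contains another.
Hist1h2ac promoter: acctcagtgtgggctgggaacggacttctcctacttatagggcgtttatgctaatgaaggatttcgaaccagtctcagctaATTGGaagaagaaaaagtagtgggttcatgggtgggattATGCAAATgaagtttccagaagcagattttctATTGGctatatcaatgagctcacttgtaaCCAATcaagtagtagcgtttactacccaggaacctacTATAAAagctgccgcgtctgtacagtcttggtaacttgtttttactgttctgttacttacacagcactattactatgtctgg
The promoter of Hist1h1c, the most read linker histone gene, is chr13:23738557-23738856 (plus strand) and is given for comparison.
Hist1h1c promoter: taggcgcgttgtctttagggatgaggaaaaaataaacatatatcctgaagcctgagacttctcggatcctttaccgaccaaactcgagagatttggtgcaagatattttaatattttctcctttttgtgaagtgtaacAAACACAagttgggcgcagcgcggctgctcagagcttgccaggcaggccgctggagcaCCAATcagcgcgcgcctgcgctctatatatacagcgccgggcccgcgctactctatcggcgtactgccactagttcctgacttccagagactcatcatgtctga
RefSeq promoters, each from 250 bases before to 50 bases after the start, were available for 61 members. TATAAA was present in 57.4% of them and in 13.6% of the 32851 promoters of the whole table. CCAAT was present in 85.2% against 37.4%. The octamer was present in 21.3% against 1.74%, and it was found in 7 of 17 H2A and 6 of 16 H2B promoters and in none of H1, H3 or H4. AAACACA was present in 14.8% against 7.18%, and it was found in 5 of 6 H1 promoters. CCAAT was in every H1, H2A, H2B and H3 promoter but in only 3 of 12 H4 promoters. The windows of a head-to-head pair can hold the same octamer, as for Hist1h2ae and Hist1h2bg, which is then counted for both genes. Of the 61 windows, 51 had their start within 50 bases of the GENCODE start, and that of Hist1h1d lay 1770 bases away. These matches describe letters in a window and are not measurements of binding.

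The 2 control libraries held 18067562 and 19077885 gene counts, and the 2 lactate libraries held 18542554 and 18948861. Mitochondrial genes took 5.48% and 5.72% of counts in the replicate 1 libraries and 2.43% and 2.82% in the replicate 2 libraries, control first. The 10 embryonic stem cell markers were all expressed, with Pou5f1 at a mean of 974 TPM in control and 822 TPM in lactate libraries, and 6 of them were fitted higher and 4 lower with lactate. Neither edgeR nor DESeq2 called any of these 10. In edgeR 3 were higher and 1 lower at an unadjusted p below 0.05, beside 11.7% and 11.4% of all genes tested. The 10 feeder fibroblast markers were also present in every library, and none was at 0 TPM in all of them. Their summed level was 723 and 777 TPM in control libraries and 1036 and 874 TPM in lactate libraries. Without Fn1 it was 135 and 184 against 151 and 155 TPM, with overlap, and 5 of the markers were fitted higher and 5 lower. In such bulk RNA, fewer cells of a type and less RNA per cell cannot be told apart, and the part of the feeder cells in the values that follow was not tested.

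Clustered histone mRNAs were rare in these libraries. All 69 members together had 927 and 1144 counts in control libraries and 797 and 1091 counts in lactate libraries. These are 0.00513%, 0.00600%, 0.00430% and 0.00576% of all gene counts. By counting error alone (exact Poisson, 95%), the intervals were 868 to 989, 1079 to 1212, 743 to 854 and 1027 to 1158 counts. Replicate 2 libraries were above replicate 1 libraries in both groups. In TPM, which corrects for transcript length, 40 members had a mean above 1 and 9 had a mean above 5. Across all genes, 14477 had a mean above 1 TPM, and the median of those was 16.1 TPM.

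A pair of genes held most of the reads. Hist1h2bc, an H2B gene at chr13:23684199-23692908 (GRCm38), had 326 and 304 counts in control libraries and 237 and 240 in lactate libraries. Hist1h1c, an H1 gene at chr13:23738808-23740367, had 145 and 281 counts in control libraries and 190 and 376 in lactate libraries. No other member exceeded 44 counts in any library. Without these genes the other 67 members held 47.0% of the counts. At the other end, 44 members had at most 10 counts in every library and 3 had none. The 3 without a count were Hist1h2aa, Hist1h2ba and Hist2h2ac, and a count of 0 allows up to 3 counts in a library. Hist1h2aa and Hist1h2ba encode the testis forms of H2A and H2B. The gene of the testis linker histone, Hist1h1t, had 1 count in 1 control library and 0 in the other 3 libraries.

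The members were also grouped by the form of their longest annotated transcript. In 22 members it ended within 100 bases of the stem-loop, as the usual histone mRNA does, and these held 11.9% of member counts. In 23 members it ran more than 100 bases past the stem-loop, and these held 46.6%, most of it from Hist1h1c. In a further 5 members the longest transcript was spliced or over 1000 bases and had no match, though 1 of them, Hist1h2bp, has a match in a shorter transcript. These held 33.4%, most of it from Hist1h2bc. The other 19 members had short 1-exon transcripts without a match and held 8.13%. Counts were not corrected for length here, so these shares compare where reads fell and not levels per molecule. The summed level of the 22 genes ending near the stem-loop was 6.42 and 8.38 CPM in control and 4.57 and 5.83 CPM in lactate libraries, with no overlap between the groups. In the 23 genes running past it, the sums were 20.99 and 27.4 against 18.8 and 31.0 CPM and overlapped, but without Hist1h1c they were 12.6 and 12.5 against 8.55 and 12.0 CPM and did not. The sums of the 5 members were 21.6 and 19.03 against 15.9 and 14.9 CPM, and those of the 19 members 4.63 and 5.53 against 3.60 and 3.55 CPM, also without overlap. On RSEM expected counts, described below, the sums of the 22 genes overlapped, as did those past the stem-loop without Hist1h1c. In TPM the sums of the 5 members overlapped, while those of the 19 members overlapped on neither measure.

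The sequences of this family are alike, which limits what a read can be assigned to. Of the 69 members, 34 shared more than 50% of their 50-base words with another gene and 4 shared none. RSEM, which divides reads among similar transcripts, gave 20 members more and 44 fewer expected counts than the raw counts. H2A stood apart: its 20 genes had 373 raw counts and 606 expected counts over the 4 libraries, while each other type had fewer expected than raw counts. All 20 H2A genes overlapped another annotated gene. In 17 of them a short gene model of 129 to 144 bases, annotated as a miRNA, lay inside the H2A gene on the opposite strand. These models had 62 and 89 raw counts in control and 40 and 49 in lactate libraries, and all 17 had 0 expected counts. In none of 68 library values did the model have more counts than its H2A gene. Strand is not stated for these libraries, so reads of an H2A gene and of the model within it cannot be told apart in the raw table.

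**Figure D1:**
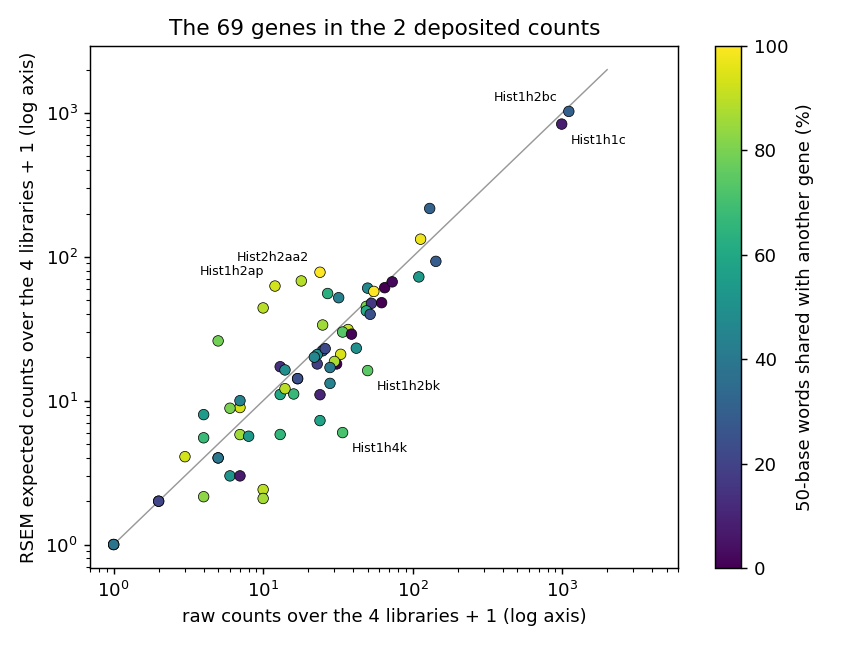
Raw counts (horizontal axis) and RSEM expected counts (vertical axis) of each of the 69 members, summed over the 4 libraries with 1 added, on log axes; colour is the percent of 50-base words shared with another gene, and the line marks equality. Hist1h2bc and Hist1h1c lie at the top near the line, while Hist1h2ap and Hist2h2aa2, which share most of their sequence, lie well above it.

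On TMM-scaled CPM the 69 members summed to 53.6 and 60.3 in control and to 42.9 and 55.3 in lactate libraries, a log2 ratio of -0.21. The groups overlapped, and without lactate replicate 1 the log2 ratio was -0.04, and without lactate replicate 2 it was -0.41. The overlap came with Hist1h1c. Without that gene, left out after its values were seen, the sums were 45.2 and 45.5 against 32.7 and 36.2 CPM, a log2 ratio of -0.40 without overlap. Without Hist1h2bc as well they were 26.4 and 29.5 against 19.9 and 24.1 CPM, a log2 ratio of -0.34, again without overlap. In TPM, however, these sums overlapped, at 136.1 and 193.2 against 111.8 and 141.2, and they also overlapped on RSEM expected counts. The core histone genes (H2A, H2B, H3 and H4), a sum chosen after the values were seen, were at 42.8 and 43.0 CPM in control and 30.2 and 33.4 CPM in lactate libraries. That is a log2 ratio of -0.43, or 25.8% less, and the groups did not overlap. It was -0.39 without Hist1h2bc and lay between -0.36 and -0.50 with each library left out in turn. In TPM and on expected counts the core groups did not overlap either, but without Hist1h2bc they overlapped on both, with log2 ratios of -0.37 and -0.31. H1 genes were at 10.8 and 17.3 against 12.6 and 21.9 CPM, most of it from Hist1h1c. With 2 libraries per group, the smallest two-sided p of an exact permutation test is 0.33, so sums were not tested.

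**Figure D2:**
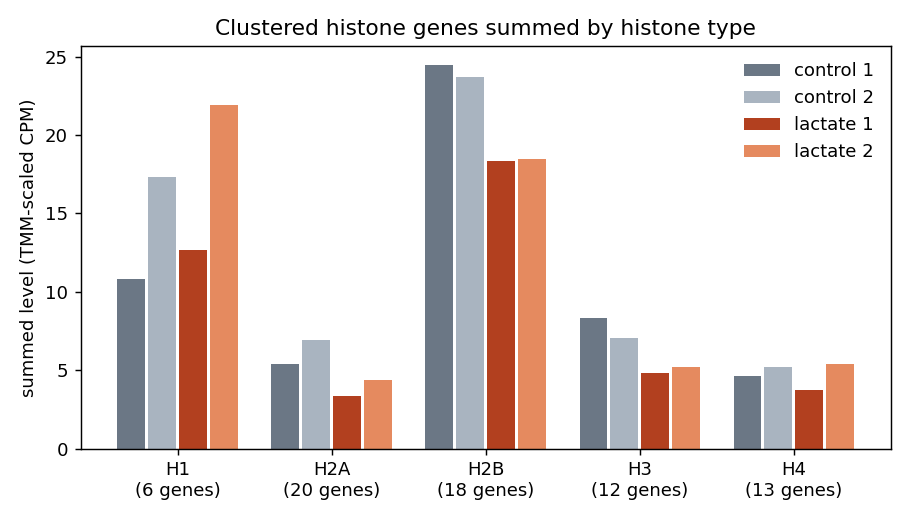
Summed level of the clustered histone genes of each type in TMM-scaled CPM (vertical axis, from 0), with 1 bar per library. Both lactate libraries lie below both control libraries for H2A, H2B and H3, while for H1 and H4 the groups overlap.

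Hist1 summed to 47.4 and 55.3 CPM in control and 38.6 and 50.1 CPM in lactate libraries. Hist2 summed to 3.99 and 2.48 against 2.69 and 2.94 CPM, and Hist3 to 2.08 and 2.48 against 1.56 and 2.13 CPM. All of these overlapped, with log2 ratios of -0.21, -0.20 and -0.31, and that of Hist2 was 0.18 without control replicate 1. In TPM Hist1 overlapped too. Hist2, at 16.76 and 19.85 against 16.71 and 14.94 TPM, and Hist3, at 4.24 and 4.59 against 3.67 and 3.79 TPM, did not, nor did they on expected counts. The single Hist4 gene, Hist4h4, had 3 and 0 counts in control and 1 and 2 in lactate libraries, too few for a fold. Within Hist1, the 24 genes of the block on chromosome 13 that holds Hist1h2bq and Hist1h4i summed to 8.04 and 10.9 CPM in control and 7.15 and 7.86 CPM in lactate libraries, without overlap. The 31 genes of the other block, which holds Hist1h2bc and Hist1h1c, summed to 39.3 and 44.4 against 31.4 and 42.2 CPM, with overlap, and without Hist1h1c to 30.9 and 29.6 against 21.1 and 23.2 CPM, without overlap. In TPM it was the first block that overlapped, at 60.8 and 100.7 against 51.6 and 80.7, and the second that did not, at 91.2 and 111.6 against 67.5 and 83.8. The remaining Hist1 gene, Hist1h2al, lies elsewhere on the chromosome.

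Of the 69 members, 19 had enough counts to be tested and 50 did not. No member was called by edgeR's quasi-likelihood test, where a call is a Benjamini-Hochberg adjusted p below 0.05 and a change of more than 2-fold. Of all 18661 genes tested, 0.9% were called. At an unadjusted p below 0.05, 5 members were lower and 0 higher with lactate, which is 26.3% and 0% of the tested members beside 11.4% and 11.7% of all genes. DESeq2 called 0 members, beside 2.01% of all genes, and gave 0 members an unadjusted p below 0.05, beside 15.5% of all genes. Of the 5 members, 3 had passed the filter through the control libraries alone, where they were high. Another, Hist1h3b, was over it in 2 control libraries but only 1 lactate library, so it too needed the control libraries to pass. Among the 10 members with at least 10 counts in every library, 1 had such a p. The lowest adjusted p in edgeR was 0.118. Of the tested members 14 were lower and 5 higher, and their median log2 fold change was -0.41 beside 0.01 for all genes. That median was -0.16 among the 10 members with at least 10 counts in every library, -0.13 on log2(FPKM + 1) and -0.66 without lactate replicate 2. Both lactate libraries were below both control libraries in 9 of 19 members (47.4%, 25.9% of all genes) and above in 2 (10.5%, 27.0% of all genes). These members had been admitted by their counts, 3 of them through the control libraries alone and 1 through the lactate libraries alone. Both control libraries were over the filter in 15 of the 19, both lactate libraries in 12, and every library in only 8. The filter thus admitted more members through control, and the counts, directions and median are a description. Among the 66 members with any count, 19 were below (28.8%, 19.2% of the 32923 genes with any count) and 5 above (7.58%, 22.5% of those genes).

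**Figure D3:**
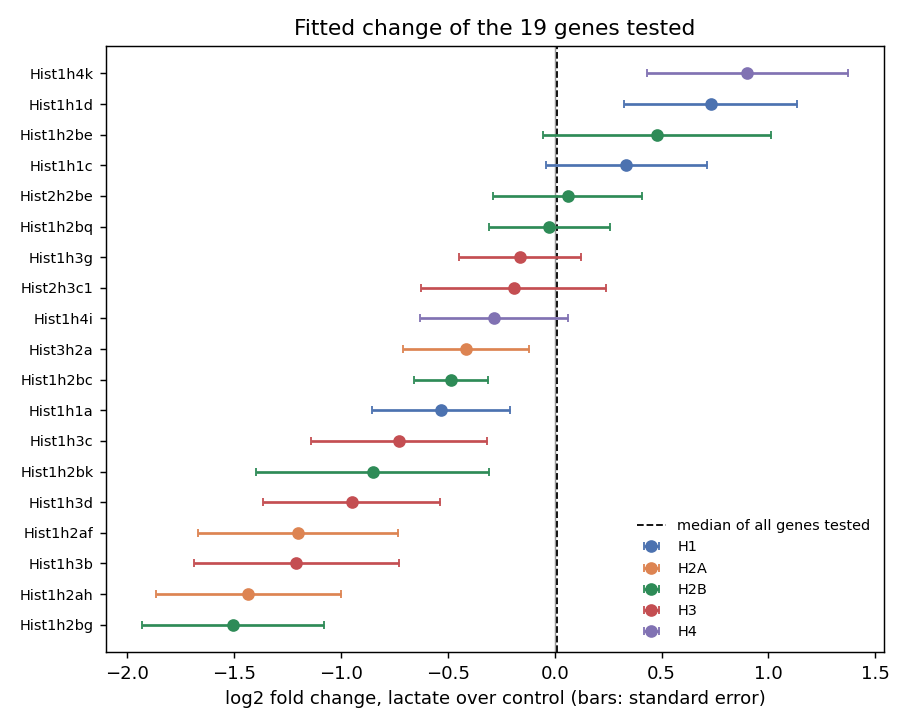
Fitted log2 fold change of lactate over control for the 19 tested members, sorted and coloured by histone type, with bars of 1 standard error; the dashed line is the median of all genes tested at 0.01. Of these, 14 lie below 0 and 5 above, and Hist1h2bg at -1.50 and Hist1h4k at 0.90 are the ends.

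The linker histone genes did not share a direction. Hist1h1c, a somatic H1 gene, was at 8.38 and 14.8 CPM in control and 10.2 and 19.1 CPM in lactate libraries. Its log2 fold change was 0.33 (SE 0.38, edgeR adjusted p = 0.650). Both replicate 2 libraries, which also had the lower mitochondrial share, were higher than both replicate 1 libraries. The groups therefore overlapped, though at each replicate number the lactate library was the higher one. The log2 fold change was -0.03 without control replicate 1 and -0.19 without lactate replicate 2, fits that leave the replicate numbers unbalanced. Hist1h1d, another somatic H1 gene, had 16 and 10 counts in control and 18 and 28 in lactate libraries. The groups did not overlap, and its log2 fold change was 0.73 (SE 0.41, edgeR adjusted p = 0.338). Hist1h1d was over the filter in 2 lactate libraries but only 1 control library, so it was admitted through the group where it was high. Hist1h1a had 18 and 19 counts in control and 12 and 15 in lactate libraries, again without overlap. Its log2 fold change was -0.53 (SE 0.32, edgeR adjusted p = 0.374). Hist1h1b had 5 and 13 counts against 5 and 7, and Hist1h1e had 3 and 5 against 10 and 6. Both were below the filter and have no test. The summed H1 level rested on Hist1h1c. Its log2 ratio was 0.29 over all 4 libraries, -0.01 without control replicate 1 and -0.16 without lactate replicate 2. Between same-numbered libraries it was 0.23 for replicate 1 and 0.34 for replicate 2, though the labels tie these numbers to no shared batch. Without Hist1h1c the other 5 genes were at 2.43 and 2.53 against 2.42 and 2.84 CPM, with overlap. In TPM they were at 4.50 and 5.97 against 3.38 and 3.59, without overlap.

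In sum, H2A genes were lower in both lactate libraries than in either control library. The 20 genes were at 5.38 and 6.96 CPM in control and 3.34 and 4.36 CPM in lactate libraries, a log2 ratio of -0.68 without overlap. In TPM the sums were 58.4 and 80.7 against 41.8 and 36.1, also without overlap. Of the 20 genes, 16 had at most 10 counts in every library. Hist1h2af had 12 and 21 counts in control and 5 and 10 in lactate libraries, and its level was 17.3 and 15.5 TPM against 4.12 and 6.2 TPM. Its log2 fold change was -1.20 (SE 0.47, edgeR adjusted p = 0.197). Hist1h2ah had 12 and 14 counts in control and 6 and 4 in lactate libraries. Its log2 fold change was -1.43 (SE 0.43, edgeR adjusted p = 0.130). In both genes all lactate values were below all control values, and both passed the filter through the control libraries alone. Hist1h2af shares 79.7% and Hist1h2ah 90.7% of its 50-base words with other genes, and each has a short opposite-strand model inside it. The model in Hist1h2af had 12 and 19 counts in control and 4 and 9 in lactate libraries, close to those of the gene. Hist2h2aa2 and Hist1h2ap were also among the 3 H2A genes with the highest mean TPM, yet had at most 9 raw counts in a library. Their levels were 7.52 and 12.8 against 3.48 and 7.02 TPM for Hist2h2aa2, which shares 100% of its words with other genes, and 7.21 and 9.55 against 8.90 and 6.28 TPM for Hist1h2ap. On raw counts Hist2h2aa2 went the other way, with 3 and 5 in control and 9 and 6 in lactate libraries, without overlap. Hist3h2a, the H2A gene with the most raw counts, overlaps Trim17 and had 31 and 41 in control and 23 and 34 in lactate libraries, with a log2 fold change of -0.41 (SE 0.30, edgeR adjusted p = 0.451).

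Among H2B genes, 1 gene carried the sum. The 18 genes were at 24.5 and 23.7 CPM in control and 18.3 and 18.5 CPM in lactate libraries, a log2 ratio of -0.39 without overlap. Without Hist1h2bc the log2 ratio was -0.16 and the groups overlapped, and on TPM the whole sum had a log2 ratio of -0.23 with overlap. Hist1h2bc itself was at 18.9 and 16.02 CPM in control and 12.7 and 12.2 CPM in lactate libraries. Both lactate values were below both control values, and the log2 fold change was -0.48 (SE 0.17, edgeR unadjusted p = 0.0291, adjusted p = 0.168). In TPM it was at 28.8 and 31.6 against 22.3 and 20.95, also without overlap. Hist1h2bg had 13 and 17 counts in control and 4 and 7 in lactate libraries, and it had the most negative fitted change of all tested members, -1.50 (SE 0.43, edgeR adjusted p = 0.118). It too passed the filter through the control libraries alone. Hist1h2be, whose annotated span overlaps Hist1h1e, had 6 and 15 counts against 10 and 21, a log2 fold change of 0.48 (SE 0.53, edgeR adjusted p = 0.646), and it was -0.10 without lactate replicate 2. This gene was over the filter in 2 lactate libraries but only 1 control library. Hist2h2be, an H2B gene of the Hist2 cluster, had 16 and 13 counts against 17 and 15, a log2 fold change of 0.06 (SE 0.35, edgeR adjusted p = 0.941).

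The deposited measures parted for Hist1h2bq and Hist1h2br, which share much of their sequence with other genes and have 3 annotated transcripts each. Hist1h2bq shares 97.3% of its 50-base words with other genes and Hist1h2br shares 88.7%. Hist1h2bq had 23 and 32 raw counts in control and 26 and 31 in lactate libraries, with a log2 fold change of -0.03 (SE 0.28, edgeR adjusted p = 0.970). In TPM it was at 6.08 and 12.3 against 8.72 and 26.6. Hist1h2br had 6 and 2 raw counts in control and 9 and 0 in lactate libraries. Its expected counts were 20.01 and 16.2 against 12.8 and 18.0, while its TPM were 5.46 and 11.1 against 0.60 and 0.78. The raw and expected counts of Hist1h2br overlapped between groups, and its TPM did not. TPM, unlike expected counts, corrects for transcript length, and the cause of the difference was not tested.

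H3 genes were lower on raw counts and less so on expected counts. The 12 genes were at 8.33 and 7.06 CPM in control and 4.84 and 5.22 CPM in lactate libraries, a log2 ratio of -0.61 without overlap. On RSEM expected counts and on TPM the log2 ratio was -0.24, and the TPM were 29.2 and 35.3 against 28.8 and 25.7. All 5 tested H3 genes had a negative fold change. Hist1h3b had 17 and 16 counts in control and 4 and 11 in lactate libraries, a log2 fold change of -1.21 (SE 0.48, edgeR adjusted p = 0.203). Hist1h3d had 19 and 14 against 7 and 11 counts, a log2 fold change of -0.95 (SE 0.41, edgeR adjusted p = 0.236). Hist1h3c had 12 and 18 against 7 and 12 counts, a log2 fold change of -0.73 (SE 0.41, edgeR adjusted p = 0.345). In these 3 genes no lactate value, scaled for library size, reached a control value. All 3 were over the filter in 2 control libraries but only 1 lactate library, so they were admitted through the group where they were high. Their shared direction is a description. Hist2h3c1, also tested, had a log2 fold change of -0.19 (SE 0.43, edgeR adjusted p = 0.839) with overlap. Hist1h3g, the H3 gene with the highest mean TPM, was at 7.55 and 7.33 TPM in control and 7.31 and 6.53 TPM in lactate libraries. Its log2 fold change was -0.16 (SE 0.28, edgeR adjusted p = 0.785), and its counts overlapped between groups. Hist1h3h was not tested and was at 2.94 and 4.60 against 6.44 and 3.55 TPM.

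H4 genes overlapped between groups. The 13 genes were at 4.63 and 5.22 CPM in control and 3.71 and 5.37 CPM in lactate libraries, a log2 ratio of -0.12, which was 0.01 on TPM and 0.13 without lactate replicate 1. Hist1h4i had 32 and 44 counts in control and 23 and 43 in lactate libraries, with overlap, and a log2 fold change of -0.28 (SE 0.34, edgeR adjusted p = 0.679). It was 0.03 without lactate replicate 1. Hist1h4k had 7 and 4 counts in control and 10 and 12 in lactate libraries, without overlap. Its log2 fold change was 0.90 (SE 0.47, edgeR adjusted p = 0.310), the largest of the tested members. The gene passed the filter through the lactate libraries alone, where it was high. On log2(FPKM + 1) its log2 fold change was -0.38, and RSEM assigned it at most 3 expected counts in a library. Hist1h4n, the H4 gene with the highest mean TPM, was at 5.30 and 7.63 TPM in control and 5.37 and 5.61 TPM in lactate libraries and was not tested.

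**Figure D4:**
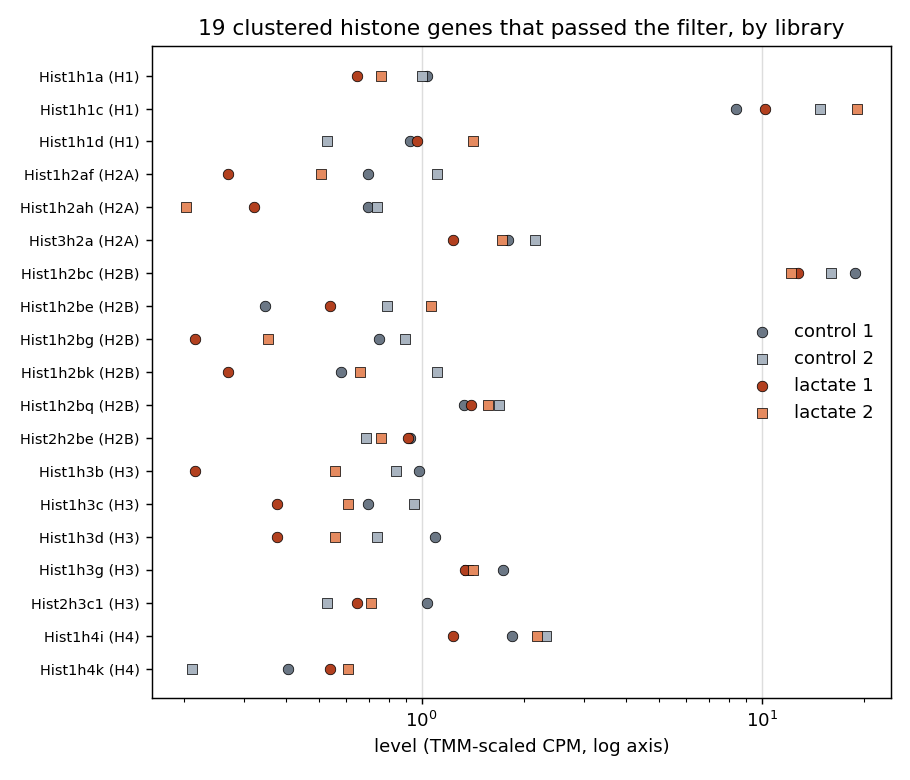
Level of each of the 19 tested members in TMM-scaled CPM (horizontal log axis), with 1 point per library and members ordered by histone type. Hist1h2bc and Hist1h1c lie near 10 CPM and above, all others lie below 3 CPM, and in Hist1h1c the replicate 2 libraries of both groups are the higher ones.

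Head-to-head partners were read unequally. H2B had more raw counts than its H2A partner in 10 of 13 pairs and fewer in 2, but H2A had the higher mean TPM in 8. In 10 pairs both genes had at most 50 counts over the 4 libraries. The pair of the promoter printed above was the most unequal: Hist1h2bc had 1107 counts over the 4 libraries and Hist1h2ac had 12. Hist1h2bq and Hist1h2ao followed with 112 and 6 counts. Hist2h2be had 61 counts and its partner Hist2h2ac none.

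In TPM, the histone genes outside the clusters were far above the clustered ones for H1, H2A and H3. They are mostly polyadenylated and are transcribed through the cell cycle. Whether RNA had been selected by its poly(A) tail is not known here, so the ratios below describe these libraries and not the cells. H3f3a and H3f3b, which encode the replacement histone H3.3, together held 946 to 1353 TPM per library, 31.4 to 52.6 times the 12 clustered H3 genes. The 6 replication-independent H2A genes held 22.3 to 51.1 times the clustered H2A genes, with H2afx counted among the 6 at 225 to 411 TPM. H1f0, H1fx and H1foo held 4.59 to 11.5 times the clustered H1 genes. Of the 12 genes of this list 11 were tested, 7 higher and 4 lower, with a median log2 fold change of 0.05. Neither edgeR nor DESeq2 called any of these 11. In edgeR 3 were higher and 1 lower at an unadjusted p below 0.05, beside 11.7% and 11.4% of all genes tested. In DESeq2 3 had an adjusted p below 0.05, as did 1 S phase gene and 1 feeder fibroblast marker. The share of all genes at that DESeq2 threshold is not given here. H3f3b had 9474 and 10365 counts in control and 16208 and 18168 in lactate libraries, a log2 fold change of 0.71 (SE 0.14, edgeR adjusted p = 0.0628). H1f0, the linker histone of resting and differentiated cells, had 1014 and 1251 counts against 1842 and 2483, a log2 fold change of 0.85 (SE 0.16, edgeR adjusted p = 0.0620). H2afx, the gene of the variant phosphorylated at DNA breaks, which also makes a stem-loop mRNA, had 3683 and 4300 counts against 2073 and 2777, a log2 fold change of -0.80 (SE 0.16, edgeR adjusted p = 0.0640). In these 3 genes the groups did not overlap, and none passed the edgeR test. H2afz, which had the highest TPM of the list, had 6371 and 9671 counts against 5921 and 11151, a log2 fold change of 0.01 (SE 0.30, edgeR adjusted p = 0.989).

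**Figure D5:**
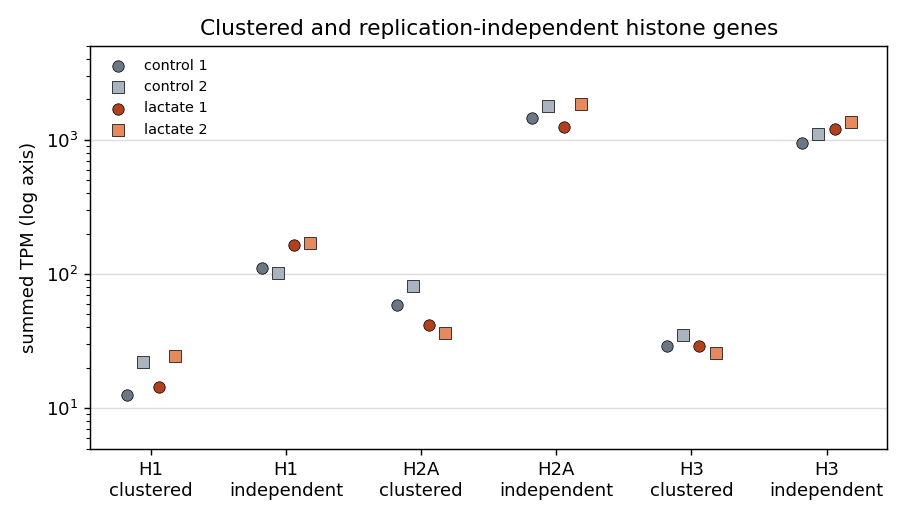
Summed TPM per library (vertical log axis) of the clustered and the replication-independent genes of H1, H2A and H3, with 1 point per library. In every library and type the replication-independent genes lie above the clustered ones, by 4.59 to 11.5 times for H1 and by 31.4 to 52.6 times for H3.

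Among the genes that make and use clustered histone mRNA, edgeR and DESeq2 called 0. Of 12 genes for transcription and end processing, 5 were higher and 7 lower, with a median log2 fold change of -0.03, and 2 were lower at an unadjusted p below 0.05 in edgeR. Slbp, which binds the stem-loop, had 1789 and 1810 counts in control and 1749 in each lactate library, a log2 fold change of -0.12 (SE 0.13, edgeR adjusted p = 0.625). Lsm10, a U7 subunit, had 188 and 200 counts against 112 and 151, a log2 fold change of -0.64 (SE 0.20, edgeR adjusted p = 0.135). Lsm11, its partner in the U7 ring, had 254 and 323 against 304 and 385, a log2 fold change of 0.18 (SE 0.18, edgeR adjusted p = 0.608). Npat was at -0.02 (SE 0.30, edgeR adjusted p = 0.972) and Casp8ap2, another factor of the histone locus body, at 0.26 (SE 0.17, edgeR adjusted p = 0.398). Of 8 turnover and translation genes, 5 were higher and 3 lower, with a median of 0.03, and 1 was higher at an unadjusted p below 0.05. Of 22 chaperone and deposition genes, 8 were higher and 14 lower, with a median of -0.29, and 10 were lower at an unadjusted p below 0.05 in edgeR, against 5 genes in DESeq2. Of 20 S phase genes, 2 were higher and 18 lower, with a median of -0.30, and 8 were lower at an unadjusted p below 0.05 in edgeR, against 5 genes in DESeq2. Of all genes tested, 11.4% were lower and 11.7% higher at such a p in edgeR, and 15.5% had one in DESeq2 in either direction. The summed level of the S phase genes was 3034 and 3309 TPM in control and 2614 and 2683 TPM in lactate libraries, without overlap. The part of S phase cells in the core histone sum was not tested.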

How the data were processed

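RNA-seq of 2 control and 2 lactate libraries was used. Per the study's methods, the authors trimmed reads with cutadapt 1.16, mapped them with STAR to GENCODE M23 and counted reads in exons with STAR's GeneCounts setting. The deposited table of raw counts also held transposable element rows, which were left out of all fits. That setting makes no such rows, and the table gave counts to both an H2A gene and the model inside it, so how overlapping genes were counted is not settled. The counter of the element rows and the strand setting are not given in the sources used here. The deposited per-library RSEM tables held expected counts, TPM and FPKM computed by the authors. Members were found by symbol in these tables and their counts by Ensembl identifier. Coordinates and transcripts were taken from GENCODE M21 on the same build, GRCm38, which held all 69 members, and promoters from RefSeq.

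Counts were fitted with edgeR 4.0.16 (R 4.3.3; TMM, filterByExpr, quasi-likelihood test, adjustment over all 18661 genes), with DESeq2 1.42.0 and limma 3.58.1 as alternatives. The filter asked for about 10 counts in at least 2 libraries. Expected counts were rounded to whole numbers for the count test. FPKM were tested as log2(FPKM + 1) for genes with a mean above 0.1, a scale that understates the change of low genes. CPM were computed on TMM-scaled library totals. The scripts were tested on simulated data. Poisson intervals cover counting error only. Text names members called, the 3 with the largest mean TPM of each type, the 5 largest and 5 smallest fold changes, every Hist1 H1 gene, and Slbp, Npat, Casp8ap2, Lsm10 and Lsm11; further genes, Hist3h2a, H3f3b, H1f0, H2afx and H2afz among them, were named after their values were seen. Members, lists and tests were chosen with earlier results of these data known. Zcchc6 and Zcchc11 are older names of Tut7 and Tut4 and were not counted.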

Additional observations from a re-analysis of the deposited data

How the results depend on the processing

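No member was called with RLE, upper-quartile or no scaling factors, without a filter (66 members tested), with at least 10 counts in every library (10 members), on RSEM expected counts, on log2(FPKM + 1), by adjusted p alone, or with any library left out. With the replicate number as a term (replicate block), 4 of 19 tested members were called lower (Hist1h2af, Hist1h2ah, Hist1h2bg and Hist1h3b). Beside them, 6.19% of all genes were called in either direction. The first 3 had passed the filter through the control libraries alone, and Hist1h3b was over it in only 1 lactate library. All 4 were thus admitted through the group where they were high, and their number is a description. In the same edgeR fit 6 members had an adjusted p below 0.05. The others were Hist1h2bc (lower, 0.00153) and Hist1h1c (higher, 0.0245), at under 2-fold. Deviations of same-numbered libraries from their group means correlated at 0.56 across genes, but there are only 2 pairs, and the labels tie the numbers to no shared batch. The cause was not tested. With each library left out in turn, the count of called members stayed at 0, the median log2 fold change of tested members lay between -0.66 and -0.32, and the summed level between -0.41 and -0.04.

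Some directions turned. The summed level of H4 was 0.0052 on TPM. Hist1h2bq was 0.0072 with upper-quartile factors, 0.040 with library totals alone, 0.19 on expected counts and 0.74 on log2(FPKM + 1). Hist1h4k was -0.38 on log2(FPKM + 1), and Hist2h2be was -0.035 on expected counts. With each library left out in turn, the summed level lay between -0.50 and 0.18 for Hist2, between -0.16 and 0.68 for H1, and between -0.41 and 0.13 for H4. Likewise the log2 fold change of Hist1h1c lay between -0.19 and 0.80, of Hist1h2be between -0.10 and 1.20, of Hist1h2bq between -0.20 and 0.15, of Hist1h4i between -0.76 and 0.034, and of Hist2h2be between -0.15 and 0.27. The cause was not tested. Depth limits these results, since 50 of 69 members had too few counts to test.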
